A study of Homo sapiens with 6 samples.

Results

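The nuclear genes for subunits of the oxidative phosphorylation complexes were followed in U2OS, a human osteosarcoma cell line. They were taken by symbol: every gene named NDUFA, NDUFB, NDUFC, NDUFS or NDUFV with a number, SDHA to SDHD, and the UQCR, COX4 to COX8 and ATP5 genes, with pseudogene copies left out. The rule found 79 genes among the 39020 listed in any library. By the first letters of the symbol, 36 were placed in complex I, 4 in complex II, 9 in complex III, 12 in complex IV and 18 in complex V. This placing, used throughout, follows the symbol alone, and the complex that holds each protein was not checked. The rule uses symbols only and no measured value. It misses some subunits whose symbols have another form, such as COX4I1, CYC1 and NDUFAB1, which are described at the end. The rule left out 18 pseudogene rows, whose counts came to between 0.108% and 0.356% of those of the 79 genes in any library.

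The series asked which RNAs are bound by TIRR, a protein that binds the DNA repair factor 53BP1, and whether irradiation changes this. Its iCLIP libraries, 2 of untreated and 2 of irradiated cells, came from U2OS cells that stably carry FLAG-tagged TIRR (genotype label TIRR_FLAG). The iCLIP assay crosslinks RNA to the proteins in contact with it by ultraviolet light and sequences what is recovered with the tagged protein. RNA-seq was made of U2OS cells labelled WT, with 1 library per condition. The dose was 5 Gy of X-rays followed by 4 h of recovery, per the labels, although the design text names gamma radiation for RNA-seq. The labels do not say whether the replicates are separate cultures, and the spread on which the p-values rest may be technical. The design text also names cells with an empty vector, which were not analysed here, so no iCLIP value has a background subtracted.

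Oxidative phosphorylation takes place in the inner mitochondrial membrane. Complex I passes electrons from NADH, and complex II those from succinate, to ubiquinone, complex III passes them on to cytochrome c, and complex IV passes them to oxygen. Complexes I, III and IV pump protons, and complex V, the ATP synthase, lets them flow back and makes ATP. Most subunits are encoded in the nucleus, translated in the cytosol and imported, while a few core subunits of complexes I, III, IV and V are encoded by mitochondrial DNA, and all 4 subunits of complex II are nuclear. The nuclear respiratory factors NRF1 and GABP, the latter also called NRF2, and the factor YY1 are known to act on the promoters of many of these genes.

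The iCLIP libraries held between 400723 and 799709 counts on genes and the RNA-seq libraries 13015406 and 13023903. A line for intergenic counts took 30.6% to 31.3% of all iCLIP counts and 44.4% of the RNA-seq counts in both libraries. Of the mesenchymal markers, VIM (36294), COL1A1 (35832), SPARC (23955) and FN1 (22704 counts) were abundant in untreated RNA-seq and RUNX2 had 855, while COL1A2 had 6, BGLAP 3 and SP7 0 counts. Epithelial keratins were present too (KRT18 3836 and KRT8 2613 counts), with 55 counts of EPCAM and 5 of CDH1, and of the blood markers PTPRC had 12 counts and HBB 0. The known p53 targets CDKN1A, MDM2 and FDXR rose after irradiation in iCLIP, with edgeR log2 fold changes of 2.36 to 3.16, and had RNA-seq ratios of 2.35 to 3.59.

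All but 1 of the 79 genes were listed in both RNA-seq libraries, and the exception, COX7B2, a paralogue of the complex IV gene COX7B, appeared in iCLIP with 1 and 5 (untreated) and 0 and 4 counts (irradiated) over a gene of 174419 bases. In iCLIP, 53 and 56 of the genes were listed for untreated cells and 44 and 47 for irradiated ones, with 58 in any of them and 39 in all 4. The other 21 were in no iCLIP table. Such an absence cannot be read as a count of 0. Of 1692 genes of at least 100000 bases with at least 300 RNA-seq counts, 174 (10.3%) were in no iCLIP table either, while only 5 of those that were listed had fewer than 10 summed counts against a median of 341. The iCLIP tables also gave 177.5 Mb more intergenic length than the RNA-seq tables, so the genes of the 2 kinds of table are not the same set. Among genes with at least 100 RNA-seq counts, 22.2% were in no iCLIP table, and 19 of the 73 genes of the complexes at that level (26.0%) were unlisted. These include SDHB and SDHD of complex II, UQCRC1, UQCRC2, UQCRFS1 and UQCRH of complex III, COX5B of complex IV and NDUFS4 of complex I, for which TIRR iCLIP says nothing here. Where a gene was listed in at least 1 iCLIP library, its absence from another was read as 0.

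The length that the deposited tables give a gene was often not that of the RefSeq gene (assembly GRCh38.p14). It was under 0.5 times the RefSeq length for 16 of the 77 genes compared, such as SDHA and NDUFV2, and over 1.5 times it for 12, such as NDUFB9, NDUFB2 and NDUFA12. For 32 of 78 genes with a RefSeq position the gene overlaps another RefSeq gene. The sources used here do not give the counting rule for overlaps or its strand setting, so reads of an overlapped gene may belong to its partner.

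The letters of known regulatory motifs were looked for in RefSeq promoters, since these factors are known to act on many of the genes. The window ran from 250 bases before to 50 bases after each start site that the RefSeq promoter table gives a gene, on both strands. Of the 79 genes, 64 had an entry. A gene was counted if any of its windows held the letters. Such a site need not be the outer end of the gene: the windows used below for ATP5MC2 and ATP5PF lie inside their RefSeq genes (chromosome 12, 53665170 to 53681423, and chromosome 21, 25724500 to 25735653). The 3 motifs were chosen with results of these data known. The NRF1 letters were GCGCATGCG, whose reverse complement CGCATGCGC is the same run moved by 1 base. They were found for 11 of the 64 genes (17.2%). The share was 4.31% of 9261 genes with at least 100 untreated RNA-seq counts and 2.34% of all 27305 genes with a promoter entry. The GABP letters CCGGAAG were found for 31.2% of the 64 genes, 23.3% of expressed genes and 12.2% of all. For the YY1 letters AAGATGGCG these were 12.5%, 5.05% and 2.14%. At least 1 of the 3 was present for 32 of the 64 genes, against 29.9% of expressed genes. A match is a run of letters and not a measured binding site. Below, the NRF1 letters (capitals) are shown with 10 bases on either side, in the gene's own 5′ to 3′ direction, for the 4 genes with enough iCLIP counts to be tested and for 1 gene each of complexes II and IV.
NDUFS6, complex I, chr5:1801351-1801379, plus strand: cagaagccgtGCGCATGCGttagcgctaa
SDHD, complex II, chr11:112086753-112086781, plus strand: agctgtgtttGCGCATGCGcgacgggtgt
COX6A1, complex IV, chr12:120437884-120437912, plus strand: ggagggcacaCGCATGCGCacgaaggaaa
ATP5F1C, complex V, chr10:7788145-7788173, plus strand: gggagcttcgGCGCATGCGcgctgaggcc
ATP5MC2, complex V, chr12:53676106-53676134, minus strand: gcccgggtcaCGCATGCGCtgagccttcc
ATP5PF, complex V, chr21:25735156-25735184, minus strand: cactcaaagaGCGCATGCGtacagagcaa
The motif began 46 bases before the table's start site in NDUFS6, 22 in ATP5F1C and 41 in ATP5MC2, and 110, 219 and 120 bases before it in SDHD, COX6A1 and ATP5PF. None of the complex III promoters in the table held these letters. ATP5PF, which encodes coupling factor 6 of the ATP synthase stalk, held all 3 motifs, and its gene overlaps GABPA, which encodes a GABP subunit.

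The genes of the 5 complexes together took a small share of the RNA recovered with TIRR, and a larger one of the cells' RNA. In iCLIP they held 0.108% (843 counts) and 0.116% (929 counts) of the gene counts in the untreated libraries and 0.106% (425 counts) and 0.114% (755 counts) in the irradiated ones. The group means were 0.112% ± 0.00592 and 0.110% ± 0.00531 (SD, n = 2 each), a difference smaller than the spread between replicates. In RNA-seq they held 0.512% before and 0.524% after irradiation, 4.57 times the iCLIP share in untreated cells. Over the genes listed in iCLIP alone, the RNA-seq share was 0.409% and the ratio 3.66. Both RNA-seq shares were taken of all RNA-seq gene counts, which include genes in no iCLIP table, such as COL1A1 and SPARC. These are averages over whole cultures, in which a change in all cells and a change in some of the cells cannot be told apart.

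The complexes were not represented alike. Complex I held 0.0829% ± 0.00298 of the gene counts in untreated iCLIP and 0.165% in untreated RNA-seq. Its RNA-seq share was 1.99 times its iCLIP share, or 1.65 times over the listed genes. NDUFA10, described below, gave 290 of the 632 and 331 of the 680 counts of complex I in the untreated iCLIP libraries. The ratio of complex I without NDUFA10 was not computed. Complex V had the largest share of the RNA-seq counts with 0.197%, and held 0.0165% ± 0.00215 in iCLIP, a ratio of 11.9, and 11.7 over the listed genes. Complex IV held 0.00783% ± 0.000591 in iCLIP and 0.0581% in RNA-seq, a ratio of 7.41, and 5.40 over the listed genes. Complex II, with 0.00360% ± 0.000211 and 0.0178%, had a ratio of 4.94, which was 2.74 over the genes listed in iCLIP. Complex III stood farthest apart, with 0.00114% ± 1.8e-05 in iCLIP against 0.0743% in RNA-seq, a ratio of 65.2 that was 24.2 over its listed genes alone. Its iCLIP share rested on 9 counts in each untreated library.

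**Figure D1:**
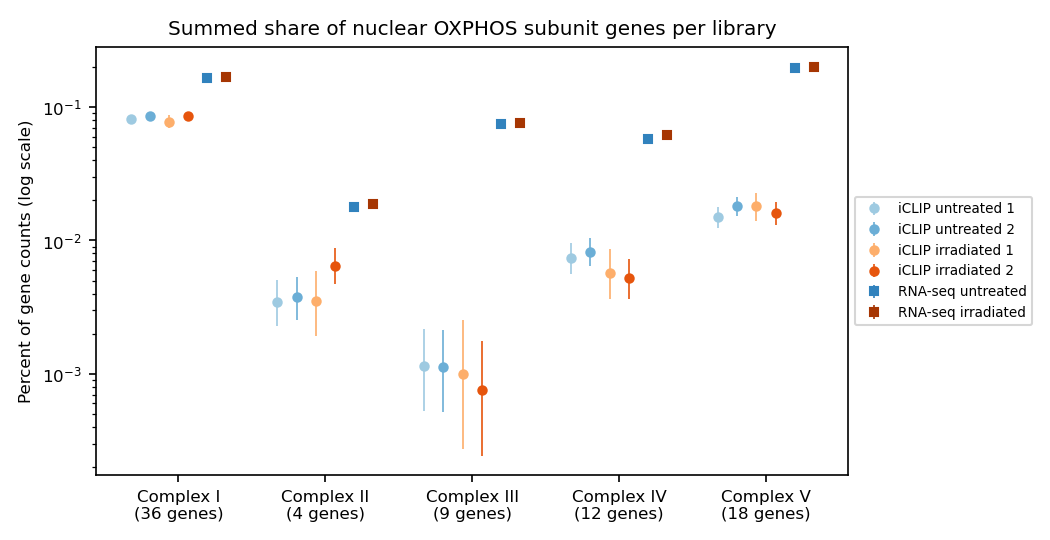
Summed share of the gene counts (percent, log axis) for the nuclear genes of each complex in the 4 iCLIP (circles) and 2 RNA-seq libraries (squares), with exact Clopper-Pearson 95% intervals that cover counting error only. With NDUFA10 included, complex I lies closest between the assays, and complex III lies farthest apart, with RNA-seq at 0.0743% and iCLIP near 0.001%. The RNA-seq shares include genes that are in no iCLIP table.

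One gene made up 35.0% of the untreated iCLIP counts of the whole group. NDUFA10 (ENSG00000130414, chromosome 2, 239892442 to 240025342), an accessory subunit of the complex I membrane arm, gave 290 and 331 counts (untreated) and 139 and 266 counts (irradiated). That was 34.4%, 35.6%, 32.7% and 35.2% of the counts of all 79 genes, while in RNA-seq it had 726 and 763 of 66661 and 68227 counts. Without NDUFA10, taken out after its values were seen, the iCLIP shares were 0.0727% ± 0.00287 and 0.0725% ± 0.00155 (SD, n = 2 each). Per kb of its deposited length of 133214 bases, NDUFA10 had 2.33 counts in the mean of the untreated iCLIP libraries. NDUFS8, an iron-sulfur subunit of complex I with a deposited length of 5884 bases, had more, with 5.10 counts per kb, and NDUFB1 had 2.42. The median over the 55 genes compared in both assays was 0.766 counts per kb.

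No gene of the 5 complexes passed the test for a change in its recovery with TIRR after irradiation. Of the 79 genes, 18 had enough counts for the edgeR quasi-likelihood test: 11 of complex I, 1 of complex II, none of complex III, 1 of complex IV and 5 of complex V. None had an adjusted p under 0.05, in a comparison where 3.50% of the 9230 genes tested did (2.43% higher and 1.07% lower). With no adjustment 1 gene, SDHC, had p under 0.05 (background 14.5%), and DESeq2 called none either. The log2 fold changes ran from -0.52 to 0.78 with a median of 0.13, against 0.00 over all genes tested, and 11 were positive and 7 negative. The median was -0.15 without irradiated replicate 1 and -0.01 without untreated replicate 1. The standard errors ran from 0.14 to 0.48, so most single genes could have changed by an amount that these counts cannot show. In CPM (counts scaled to a library of 1000000 after TMM) the groups did not overlap for 5 of the 18 genes (27.8%, background 44.0%), which were SDHC, NDUFV3, ATP5MC2, COX6C and NDUFA12.

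Among the complex I genes, NDUFA10 gave the most precise value. The untreated libraries gave 363 and 404 CPM and the irradiated ones 358 and 407 CPM. The groups covered nearly the same range, and the log2 fold change was 0.00 ± 0.14 (SE, edgeR adjusted p = 0.994). NDUFB9, an accessory subunit, came next with 86.3 and 78.1 CPM before and 74.6 and 109 CPM after irradiation, so that the 2 irradiated libraries lay on either side of the untreated ones (log2 fold change 0.20 ± 0.22, edgeR adjusted p = 0.747). NDUFB2, another accessory subunit, had 55.0 and 37.8 CPM before and 43.7 and 36.7 CPM after (-0.23 ± 0.30, edgeR adjusted p = 0.8003), with the irradiated libraries at the lower end of an overlapping range. NDUFV3, a small subunit of the NADH-binding module, had 18.8 and 18.3 CPM in untreated cells and 38.6 and 27.5 CPM in irradiated cells. The groups did not overlap, and the change of 0.78 ± 0.38 on the log2 scale was the highest of the 18 but did not pass the test (edgeR adjusted p = 0.357). NDUFA12, an accessory subunit, had 21.3 and 18.3 CPM before and 18.0 and 13.8 CPM after irradiation, and its log2 fold change of -0.36 ± 0.45 was below its standard error (edgeR adjusted p = 0.791).

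Core iron-sulfur subunits of complex I were among the tested genes. NDUFS1, the largest iron-sulfur subunit, had 37.5 and 43.9 CPM before and 61.7 and 36.7 CPM after irradiation. NDUFS8 had 35.0 and 39.0 CPM before and 48.9 and 32.1 CPM after. In both the irradiated libraries spread more widely than the untreated ones and overlapped them, and the log2 fold changes were 0.19 and 0.06. NDUFS6, a zinc-binding subunit whose promoter letters are shown above, had 31.3 and 39.0 CPM before and 38.6 and 42.8 CPM after (0.22 ± 0.30, edgeR adjusted p = 0.812).

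In complex II, which links the tricarboxylic acid cycle to the electron transport chain, 1 gene could be tested. SDHC (ENSG00000143252, chromosome 1, 161314381 to 161363206), a membrane anchor subunit, gave 27 and 28 counts (untreated) and 14 and 43 counts (irradiated), or 33.8 and 34.2 against 36.0 and 65.8 CPM. Irradiated replicate 2 stood well above the other 3 libraries, and irradiated replicate 1 lay just above the untreated pair. The log2 fold change was 0.66 ± 0.31 (SE, edgeR adjusted p = 0.321). It was 0.951 without irradiated replicate 1 and 0.085 without irradiated replicate 2. RNA-seq counted SDHC 709 times in untreated and 649 times in irradiated cells (ratio 0.905, 95% counting interval 0.812 to 1.008). SDHA, the flavoprotein subunit, had 2 iCLIP counts in untreated replicate 2 and none elsewhere, over a deposited length of 1148 bases, where the RefSeq gene spans 218320 to 268746 on chromosome 5.

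No gene of complex III reached the number of counts needed for the test. UQCRQ, a small subunit, gave 5 and 4 counts in untreated cells and 3 and 4 in irradiated ones. UQCR10, another small subunit, had 1 and 3 counts before and 1 and 0 after, and UQCRB, which binds ubiquinone, had 2 and 1 before and 0 and 1 after. Each of these 3 had between 928 and 1279 RNA-seq counts in the untreated library. A difference in their iCLIP counts was not detectable at this depth.

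In complex IV, COX6C (ENSG00000164919, chromosome 8, 99877865 to 99893707), a small nuclear subunit of cytochrome c oxidase, had 37.5 and 45.1 CPM in untreated and 30.9 and 27.5 CPM in irradiated cells. Irradiated libraries lay below untreated ones, and COX6C was the only one of the 18 tested genes besides NDUFA12 with this order. The log2 fold change was -0.52 ± 0.32 (SE, edgeR adjusted p = 0.502), and -1.15 with all libraries thinned to equal depth. COX5A had 10 and 7 counts before and 4 and 6 after, and COX7B had 9 and 6 before and 5 and 0 after. COX7C, another small subunit with 1160 untreated RNA-seq counts, had 1 and 4 iCLIP counts before and none after.

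In complex V, ATP5F1C, the gamma subunit that forms the rotating shaft, had the most iCLIP counts, with 21.3 and 40.3 CPM before and 28.3 and 41.3 CPM after irradiation (log2 fold change 0.23 ± 0.37, edgeR adjusted p = 0.854). ATP5MC2, 1 of the genes for the c subunit of the membrane ring, had 13.8 and 22.0 CPM before and 28.3 and 24.5 CPM after. Its groups did not overlap, and the change was 0.53 ± 0.41 on the log2 scale (edgeR adjusted p = 0.618). ATP5PF had 26.3 and 14.6 CPM before and 12.9 and 15.3 CPM after (-0.50 ± 0.48, edgeR adjusted p = 0.704), where untreated replicate 1 was high and the other 3 libraries were alike. ATP5MK, a small membrane subunit, had 16.3 and 23.2 CPM before and 30.9 and 22.9 CPM after (0.40 ± 0.40, edgeR adjusted p = 0.723). The catalytic subunits were sparse: ATP5F1A, the alpha subunit, had 14 and 15 counts before and 12 and 10 after, and ATP5F1B, the beta subunit, had 6 and 12 before and 5 and 4 after.

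**Figure D2:**
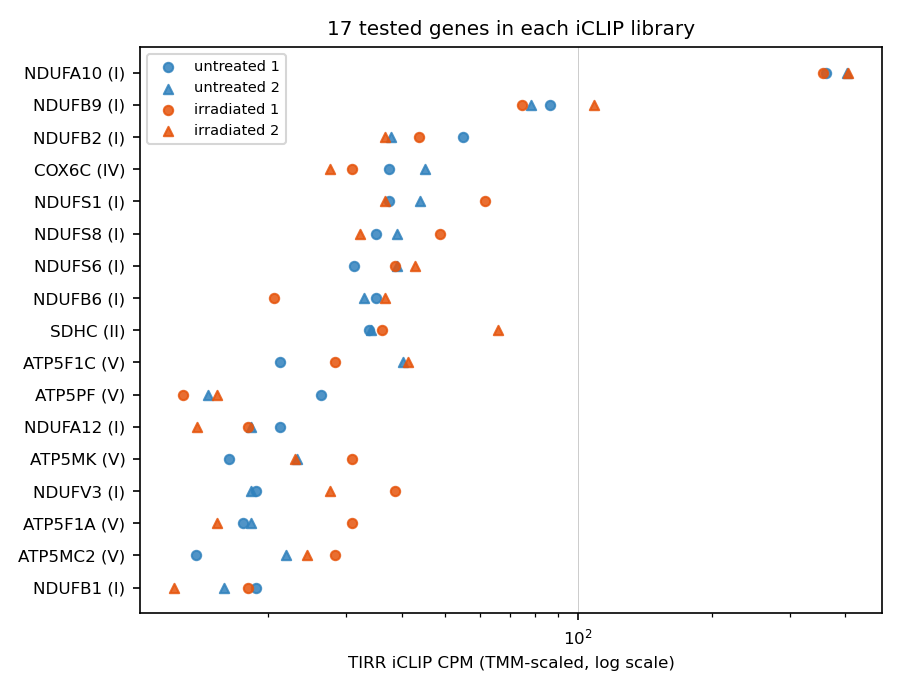
TIRR iCLIP level (TMM-scaled CPM, log axis) of 17 of the 18 genes with enough counts for the test, with 1 point for each of the 4 libraries and the complex in brackets. NDUFA10 stands at 358 to 407 CPM in all 4 libraries, and in SDHC irradiated replicate 2 (65.8 CPM) stands apart from the other 3 libraries.

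The other 40 listed genes had at most 12 counts in any iCLIP library and were not tested. They summed to 293 counts before and 175 after irradiation, a TMM-scaled ratio of 0.928 (exact 95% counting interval 0.765 to 1.12). For the 18 tested genes the sums were 1479 and 1005, a ratio of 1.06 (0.973 to 1.14). Both intervals include 1 and cover counting error only.

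In RNA-seq, no gene of the 5 complexes with at least 100 counts in either library reached a 2-fold difference after irradiation. The 6 genes below that level were not compared. Of the 73 genes at that level, none passed the size rule, which asks for a 2-fold difference whose 95% counting interval lies wholly beyond 1.5-fold, while 1.49% of the 12977 genes compared did (0.863% higher and 0.624% lower). With 1 library per condition these ratios have no replicate check. The ratios of the 73 genes ran from 0.843 to 1.38 with a median of 1.02, against 0.998 over all genes. Their interquartile range was 0.967 to 1.07, and that of all genes 0.894 to 1.11. In the untreated library the median was 690.5 counts over the 78 genes of the complexes listed in RNA-seq. Over all 12977 genes compared, each with at least 100 counts in the higher library, it was 465. These sets are unlike, since the 78 genes include some below that level. A ratio between larger counts carries less counting error, but its part in the narrower range was not tested. A ratio above 1 was seen in 44 of the 73 genes (60.3%) and in 49.5% of all genes.

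By complex, the median ratios lay between 1.00 and 1.09: 1.02 over 34 genes of complex I, 1.09 over 4 of complex II, 1.03 over 8 of complex III, 1.06 over 9 of complex IV and 1.00 over 18 of complex V. The counting interval lay wholly above 1 in 8 genes (10.96%, background 20.4%) and wholly below 1 in 2 genes (2.74%, background 22.0%). Among the 8, NDUFV3 was counted 400 times in untreated and 531 times in irradiated cells (ratio 1.31, 95% counting interval 1.15 to 1.498). NDUFS6 had 811 and 998 counts (1.22, 1.11 to 1.34), and COX5A, a subunit on the matrix side of complex IV, had 670 and 792 (1.17, 1.05 to 1.30). ATP5PB, the b subunit of the ATP synthase stator, had 2354 and 2635 counts (1.11, 1.05 to 1.17). The highest ratios belonged to genes with few counts: NDUFA9 with 81 and 113 (1.38, 1.03 to 1.86) and COX8A with 94 and 126 (1.33, 1.007 to 1.75). The last of the 4 highest named by rule, NDUFC2, had 90 and 119 counts and an interval of 0.986 to 1.74, and its gene overlaps the readthrough gene NDUFC2-KCTD14.

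Of the genes with an interval below 1, NDUFB10, an accessory subunit of complex I, was counted 879 times in untreated and 749 times in irradiated cells (0.843, 95% counting interval 0.763 to 0.930). The genes with the most RNA-seq counts had ratios near 1: ATP5F1B had 4781 and 4841 counts (1.001, 0.962 to 1.04), ATP5F1A 4092 and 4000 (0.967, 0.925 to 1.0099), and UQCRC1, a core subunit of complex III, 2114 and 2120 (0.992, 0.933 to 1.05). The subunits encoded by mitochondrial DNA had lower ratios than the nuclear ones: all 13 lay between 0.643 and 0.836, with a median of 0.737. None of the 13 passed the size rule. In iCLIP all 9 that were tested had positive log2 fold changes, as did 50.2% of all genes tested, with a median of 0.42, and none passed that test.

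**Figure D3:**
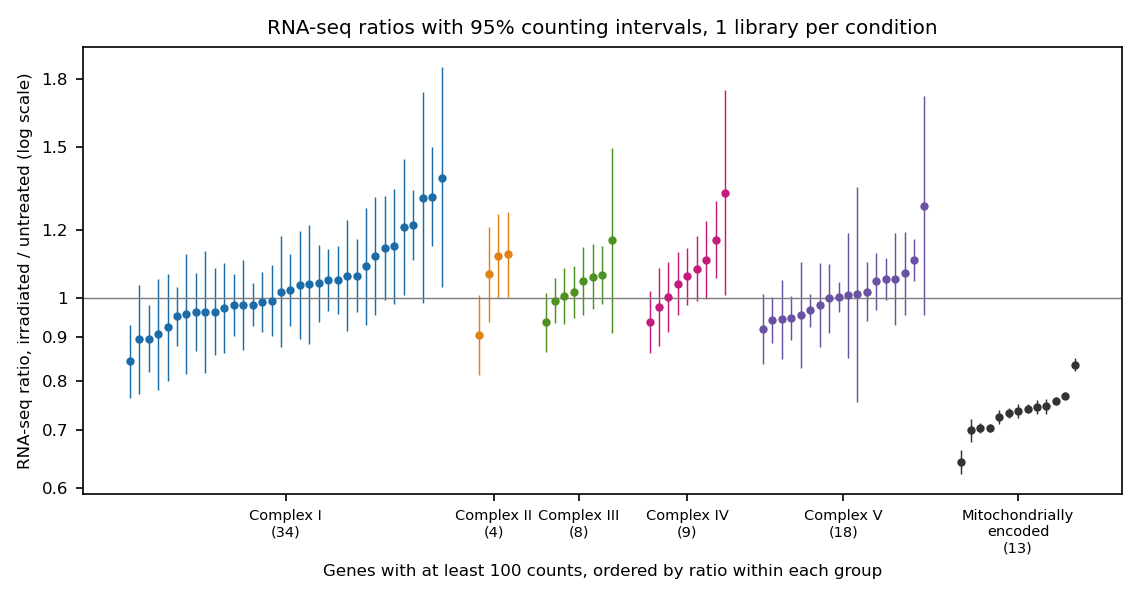
RNA-seq ratio of irradiated to untreated cells (TMM-scaled, log axis) with exact 95% counting intervals, for the 73 nuclear genes with at least 100 counts and the 13 mitochondrially encoded subunit genes, each group ordered by ratio. The 73 nuclear genes lie between 0.843 and 1.38 around 1, and all mitochondrially encoded ones between 0.643 and 0.836.

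Compared with RNA-seq, most of these genes took a smaller share of the RNA recovered with TIRR. For 55 genes listed in iCLIP and counted 50 times or more in untreated RNA-seq, the ratio of the untreated iCLIP share to the RNA-seq share was formed. The assays differ in protocol and genotype label and RNA-seq had 1 library, so this is a description. Each share was taken of all gene counts of its assay, and those of RNA-seq include genes in no iCLIP table. The median log2 ratio was -3.00, or 7.99-fold lower in iCLIP, against -0.23 over 11385 genes. With a prior count of 5 the medians were -1.75 and 0.25, and over genes with at least 500 RNA-seq counts -3.63 and -0.89. At least 2-fold lower in both untreated iCLIP libraries were 41 of the 55 (74.5%), where 33.2% of all genes were. At least 2-fold higher in both was 1, NDUFA10 (background 26.5%). The median was -2.88 in replicate 1 and -3.18 in replicate 2.

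Gene length moved with this ratio. The 55 genes were short, with a median deposited length of 9032 bases against 35548 over all genes compared. Across the 55 genes length and ratio had a Spearman correlation of 0.54, and 0.65 across all genes, as a description of genes counted in the same libraries. A background of the 2706 compared genes within the interquartile range of these lengths (4527.5 to 19188 bases) was chosen after seeing the data. The subunit genes were not taken out of it. Its median log2 ratio was -1.59, and 55.1% were at least 2-fold lower. RNA-seq counts differed too, with a median of 732 in the 55 genes against 399 over all genes. Per kb of deposited length, the RNA-seq medians were 78.0 and 12.04. The iCLIP density of the 55 genes, 0.766 counts per kb, was close to the 0.585 of all genes. Values per kb divide by the deposited length, so they are not separate from it. The part of length and of RNA level in the low ratios was not tested.

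All 15 compared genes of complex V and all 4 of complex III were at least 2-fold lower in iCLIP, as were 5 of 6 of complex IV, 1 of 2 of complex II and 16 of 28 of complex I. The median log2 ratio was -4.05 for complex V, -4.29 for complex III, -3.32 for complex IV, -2.80 for complex II and -2.19 for complex I. The highest ratio belonged to NDUFA10, at 7.04 (95% counting interval 6.31 to 7.85), with log2 values of 2.73 and 2.89 in the 2 libraries. NDUFB2 followed with a ratio of 1.63 (1.26 to 2.10), then NDUFB1 with 1.05 (0.683 to 1.56), NDUFB6 with 0.832 (0.619 to 1.10) and NDUFA12 with 0.766 (0.515 to 1.10). Below NDUFA10 their intervals overlap from one to the next. Those of SDHC (0.638, 0.476 to 0.841) and NDUFV3 (0.617, 0.411 to 0.895) overlap the last of them. The order of neighbours is therefore not resolved, but the interval of NDUFB2 lies wholly above those of NDUFB6, NDUFA12, SDHC and NDUFV3. NDUFA10 is also the longest of the 5, and the deposited lengths of NDUFB2 (26610 bases) and NDUFA12 (108452 bases) exceed those of their RefSeq genes.

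The lowest ratios rested on few iCLIP counts. ATP5F1B, with 4781 RNA-seq counts, had 6 and 12 iCLIP counts, a ratio of 0.0310 (95% counting interval 0.0183 to 0.0490). UQCRB had 1219 RNA-seq counts and 2 and 1 iCLIP counts (0.0202, 0.00417 to 0.0593). ATP5IF1, the inhibitor of ATP hydrolysis by the synthase, had 916 RNA-seq counts and 1 in each iCLIP library (0.0180, 0.00217 to 0.0651). ATP5F1D, the delta subunit, with 616 RNA-seq and 0 and 1 iCLIP counts, and NDUFB10, with 879 and 0 and 3 counts, complete the lowest 5 by the mean of the 2 libraries. The intervals of the 5 overlap, and the order among them is not resolved.

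**Figure D4:**
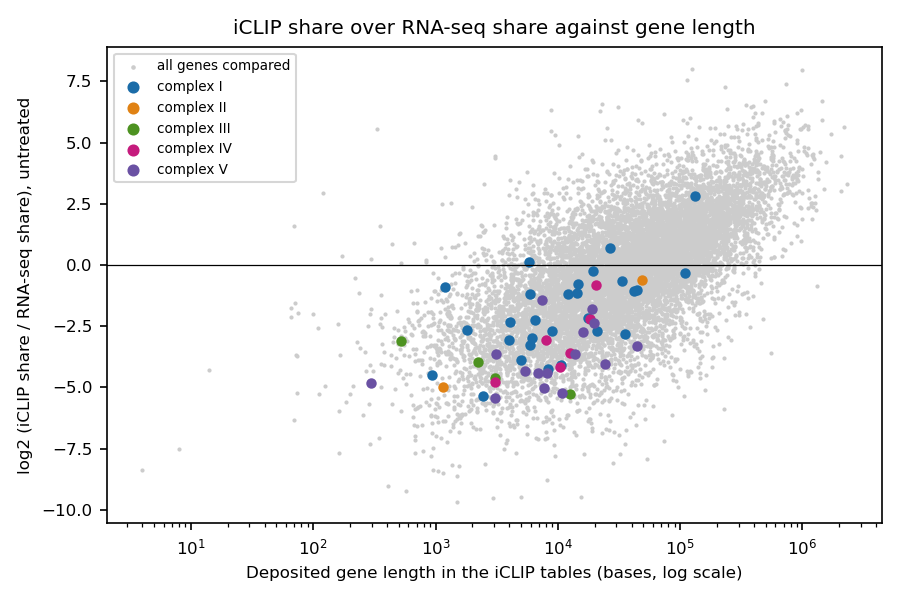
Log2 ratio of iCLIP share to RNA-seq share in untreated cells against the deposited gene length (bases, log axis) for 11385 genes (grey) and the 55 nuclear subunit genes, coloured by complex. Most subunit genes lie at the short end and below 0, and NDUFA10 is the highest at 2.81.

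Genes that act beside the subunits were taken from lists of known function. Among 51 assembly factors, which build the complexes without remaining in them, 17 were tested in iCLIP and 1, NDUFAF6, rose, while none fell (background 3.50%). NDUFAF6 (ENSG00000156170, chromosome 8, 94895799 to 95118496), a complex I assembly factor, had 73.8 and 68.3 CPM before and 113 and 142 CPM after irradiation. The groups did not overlap, and the rise was 0.87 ± 0.20 on the log2 scale (SE, edgeR adjusted p = 0.0212). The adjusted p was 0.224 with DESeq2, and in edgeR 0.213 at equal depth and 0.0687 with a replicate block. In edgeR it stayed under 0.05 with library totals (0.0366), no filter (0.0209) and a stricter filter (0.0251). With 1 library left out, the log2 fold change ran from 0.67 (without irradiated replicate 2) to 1.00 (without irradiated replicate 1). RNA-seq counted it 429 and 1128 times (ratio 2.60, 95% counting interval 2.32 to 2.91), and it was the only 1 of 46 assembly factors past the size rule (background 1.49%). Its span encloses TP53INP1 (94925972 to 94949378), a known p53 target, which was looked up after the values of NDUFAF6 were seen. TP53INP1 gave 10 and 10 iCLIP counts in untreated and 19 and 45 in irradiated cells (log2 fold change 2.28 ± 0.35, edgeR adjusted p = 0.000655) and an RNA-seq ratio of 2.68 (2.35 to 3.05). Its part in the values of NDUFAF6 was not tested.

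None of the other 5 lists of mitochondrial function had a gene that passed in iCLIP or in RNA-seq. The numbers tested in iCLIP were 2 for the subunits and carriers outside the symbol rule, 9 for the mitochondrially encoded subunits, 6 for the tricarboxylic acid cycle and pyruvate dehydrogenase, 9 for regulators and 3 for carriers of ATP, ADP and phosphate. COX7A2L, a factor that joins complexes III and IV, had 160 and 139 CPM before and 157 and 184 CPM after irradiation. CYCS, cytochrome c, was in no iCLIP table and was counted 1510 and 1980 times by RNA-seq (ratio 1.30, 95% counting interval 1.21 to 1.39). COX4I1, a nuclear subunit of complex IV, and CYC1, the cytochrome subunit of complex III, had RNA-seq ratios of 1.007 and 1.03. Among the regulators, NRF1 had 155 and 160 CPM before and 116 and 127 CPM after irradiation. Its groups did not overlap, and the log2 fold change of -0.36 ± 0.18 did not pass the test (edgeR adjusted p = 0.356). In RNA-seq NRF1 had a ratio of 0.837 (95% counting interval 0.695 to 1.008) and GABPA one of 1.16 (1.04 to 1.29). PPARGC1A, the coactivator of mitochondrial biogenesis, was counted 130 and 75 times by RNA-seq (ratio 0.570, 0.424 to 0.764), which did not reach 2-fold.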

How the data were processed

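The authors deposited, per the file headers, 1 line per gene with a whole-number cDNA count, its percent of all listed cDNA (not used in any result) and a length, with 1 further line for intergenic counts. The submitters' processing notes give the build as hg38 and name kallisto 0.44.0 for RNA-seq. The sources used here do not give the aligner, duplicate removal, annotation release or strand setting. Library sizes and tests used gene counts only, without the intergenic line.

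All tests were fitted on the whole tables. iCLIP counts of irradiated and untreated libraries were compared with the edgeR 4.0.16 quasi-likelihood F test (R 4.3.3; TMM scaling, default filterByExpr filter, two-sided, Benjamini-Hochberg adjustment at 0.05), with DESeq2 1.42.0 as an alternative. The edgeR step was run on counts simulated with dispersions fitted to these libraries. That cannot show whether the spread between replicates is only technical. For RNA-seq, with 1 library per group, TMM-scaled ratios carry exact conditional 95% intervals, and the size rule needed 100 counts in the higher library. The log2 ratio of iCLIP share to RNA-seq share used a prior count of 0.5. Shares carry exact Clopper-Pearson 95% intervals. All intervals cover counting error only. The share ratios printed with an interval, and those intervals, were computed from the summed untreated iCLIP counts with no prior count. A chi-square per degree of freedom of 1.42 (untreated pair) and 1.87 (irradiated pair) showed more spread between replicates than counting error gives. Other steps used scipy 1.17.1, pandas 2.3.3, numpy 2.4.6 and, for figures, matplotlib 3.10.9, in Python 3.11.15. Positions and promoter sequences came from RefSeq tables of GRCh38.p14.

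The members and lists were chosen with earlier results of these data known. Named genes were, per complex, the 3 with most iCLIP and the 2 with most RNA-seq counts, the 5 smallest edgeR p, the 4 largest RNA-seq differences in each direction and the 5 highest and 5 lowest share ratios. Further tested genes and genes that fill out a count of 5 or fewer were named after their values were seen. One member that the rule covers is not reported here.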

Additional observations from a re-analysis of the deposited data

How the results depend on the processing

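No member had an adjusted p under 0.05 in iCLIP, and none passed the RNA-seq size rule, under any alternative run with all libraries kept. The count over all genes in iCLIP moved from 323 to 122 with DESeq2, 190 with a replicate block and 154 at equal depth. It was 353 with no filter, 316 with library totals and 296 with a stricter filter. The labels do not say that replicate numbers pair the samples. The correlation of same-numbered deviations was -0.0935, which cannot exclude pairing, since counting noise alone brings it near 0. The replicate block put NDUFAF6 at an edgeR adjusted p of 0.0687. The log2 fold change of NDUFA10, 0.00, became -0.0623 with library totals, -0.0279 with no filter and -0.0037 with a replicate block, and -0.0997 to 0.0868 when 1 library was left out. The median log2 change of tested members was -0.0524 with no filter and -0.15 to 0.13 when 1 library was left out. The median log2 share ratio was -1.75 with a prior count of 5, -3.63 over genes with at least 500 RNA-seq counts, -2.68 with intergenic counts in the denominator and -2.69 in irradiated libraries. With intergenic counts the summed shares were 0.0776% and 0.0757% in iCLIP (untreated and irradiated) and 0.285% and 0.291% in RNA-seq. With pseudogenes and the subunits outside the rule they were 0.130%, 0.1295%, 0.571% and 0.588%, and without NDUFA10 0.0727%, 0.0725%, 0.507% and 0.518%. The cause of these shifts was not tested beyond what each change of counts or genes makes by construction. In iCLIP, 40 listed genes had too few counts for the test, and 21 were in no table.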
